A study of Homo sapiens with 3 samples.

Results

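The Krüppel-like factor (KLF) genes examined here were *KLF2*, *KLF3*, *KLF4*, *KLF5*, *KLF6*, *KLF7*, *KLF9*, *KLF10*, *KLF11* and *KLF13*, 10 of the 20163 protein-coding genes in GENCODE 44 mapped to hg19. They were chosen by name, and the peaks assigned to each were the distinct intervals over the gene or within 50 kb of it, called its window below. The peaks came from chromatin immunoprecipitation with sequencing (ChIP-seq) in untreated H2087 cells, an established human lung adenocarcinoma line, with abcam antibodies to 2 forms of histone H3, H3K4me3 (trimethyl lysine 4) and H3K27ac (acetyl lysine 27). Each mark was 1 library without replicates, a library of input chromatin was not analysed here, and no read counts were in the peak lists. The sequencing depth is therefore unknown, a start without a peak cannot be told from one with too few reads, and no test was possible. Shares of peaks are followed by their 95% Clopper-Pearson interval. It holds counting error alone and is too narrow where peaks near each other move together.

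KLF proteins are transcription factors whose zinc fingers bind GC-rich boxes and CACCC boxes, the same kind of site that the related SP factors bind. KLF2, KLF4, KLF5, KLF6 and KLF7 are usually grouped as activators, KLF3 as a repressor that recruits the co-repressor CtBP, and KLF9, KLF10, KLF11 and KLF13 as factors that recruit the co-repressor SIN3A. In epithelia, including that of the lung, members of the family are known for control of proliferation and differentiation. H3K4me3 is typically found around active starts of transcription, and H3K27ac around active promoters and enhancers. Neither mark measures how much RNA a gene makes.

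H3K4me3 was found close to the start of most of these 10 KLF genes, and the count for H3K27ac depended on the start used. Among 8 other KLF genes, described below, 2 had H3K4me3 and 0 had H3K27ac within 1 kb of the outer start. An H3K4me3 peak lay within 1 kb of the outer gene start of 7 of the 10 genes (*KLF2*, *KLF3*, *KLF4*, *KLF6*, *KLF9*, *KLF10* and *KLF13*), against 38.2% of all protein-coding genes. H3K27ac lay within 1 kb for 2 of 10, *KLF3* and *KLF10*, against 23.6% of all genes. Both marks were present for the same 2 genes, against 18.6% of all genes. Of the starts with H3K4me3, 2 of the 7 KLF starts and 48.6% of all (47.5 to 49.7, 3746 of 7705) also had H3K27ac.

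The start of the canonical transcript lies inside the gene by 713 bp in *KLF4*, 4029 bp in *KLF5*, 7908 bp in *KLF7* and 701 bp in *KLF11*. Measured from that start, H3K4me3 was within 1 kb for 8 of 10 genes, with *KLF7* added, against 41.3% of all genes. H3K27ac was within 1 kb for 4 of 10, with *KLF4* and *KLF7* added, against 25.2% of all genes, and both marks for 4 of 10 against 20.4%. Of the canonical starts with H3K4me3, 4 of the 8 KLF starts and 49.3% of all (48.2 to 50.4, 4106 of 8331) also had H3K27ac. The H3K27ac count of the KLF genes thus lay just below the share of all genes from the outer start (2 of 10 against 23.6%). It lay above that share from the canonical start, but 10 genes are too few to read a direction from either count.

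**Figure D1:**
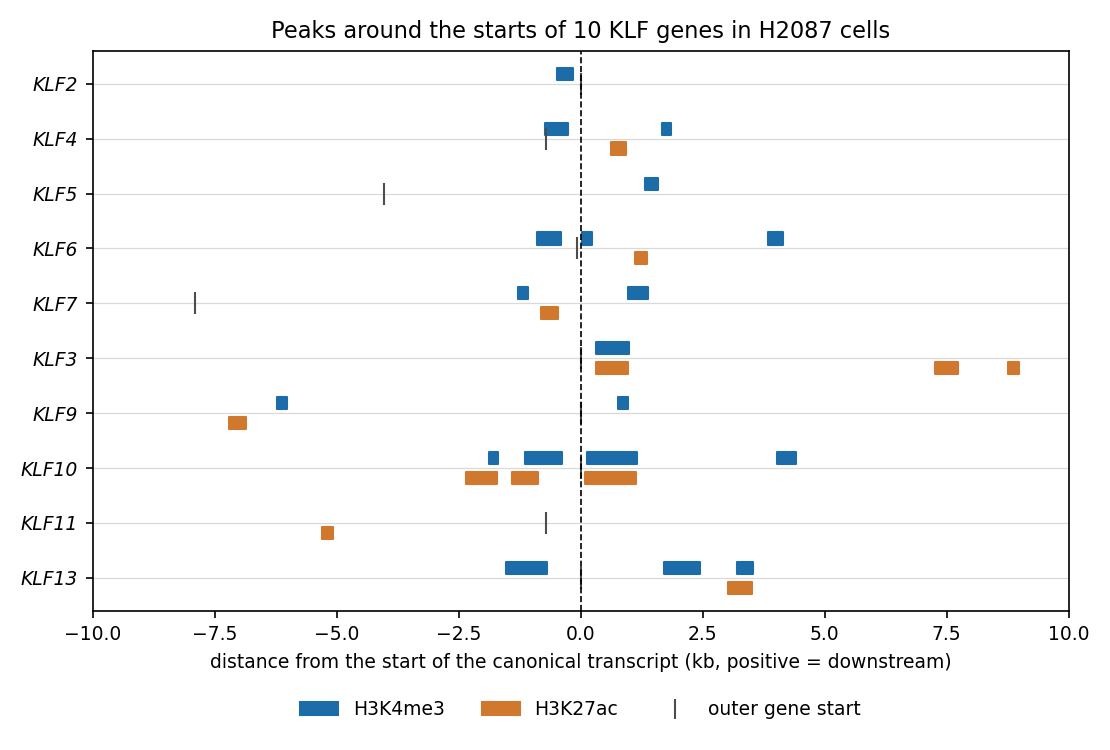
Peaks of H3K4me3 (blue, above each line) and H3K27ac (orange, below) within 10 kb of the canonical start of each KLF gene, drawn to scale along the direction of transcription. Grey ticks mark the outer gene start. No bar crosses the dashed line at the canonical start, and *KLF10* is the gene with bars of both marks on either side of it.

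In the windows, 9 of the 10 genes had at least 1 H3K4me3 peak, against 70.2% of all genes, and 8 had H3K27ac, against 63.9%. *KLF11* had no H3K4me3 peak, and *KLF2* and *KLF5* had no H3K27ac peak. The windows held 23 H3K4me3 peaks, 15 of them over the genes, and 20 H3K27ac peaks, 12 of them over the genes. The median per gene was 2.5 for H3K4me3 and 2 for H3K27ac, against 2 and 1 over all genes. The KLF peaks were close to their lists in width and strength. Their median width was 340 bp (182 to 1012) for H3K4me3 and 312 bp (185 to 1031) for H3K27ac, against 305 and 284 bp in the whole lists. The value in the last column of each list was read as the −log10 q of the authors' peak caller, where a higher value means stronger evidence within that list. Its median was 3.32 (1.55 to 9.72) for the KLF H3K4me3 peaks against 2.97 in the list, and 2.82 (1.55 to 5.12) for the KLF H3K27ac peaks against 2.65.

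Few other protein-coding genes started in the windows. Another protein-coding start lay in the window of 1 of the 10 genes (*KLF11*, with *CYS1*), whereas 79.6% of all genes had one. The KLF start was the nearest protein-coding start for 22 of the 23 H3K4me3 peaks and 20 of the 20 H3K27ac peaks (95% interval 83.2% to 100%). The exception was an H3K4me3 peak in the *KLF10* window that lay nearest to *ODF1*. With so few other protein-coding starts, high counts largely follow from the windows themselves, and the same share was not computed over all genes. When starts of all genes were counted, a KLF start was nearest to 4 of the 20 H3K27ac peaks (20%). Starts of non-coding genes were closer, and 5 of the 10 genes had another annotated start within 1 kb, against 31.6% of all genes. These were KLF2-DT, KLF3-AS1 and unnamed long non-coding RNA genes at *KLF6*, *KLF7* and *KLF10*. A peak between such starts cannot be assigned to either one.

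Overlap of the marks was limited. Of the 20 H3K27ac peaks, 6 (30%, 11.9 to 54.3) had 1 bp or more in common with H3K4me3, against 24.0% of the whole list. Of the 23 H3K4me3 peaks, 6 (26.1%, 10.2 to 48.4) overlapped H3K27ac, against 31.1%. Both intervals include the share of the list. The overlapping pairs lay at *KLF3*, *KLF7*, *KLF10* and *KLF13*. All 3 H3K27ac peaks of *KLF10* were among them and lay within 3.47 kb, so that the pairs are not independent. When peaks within 1 kb of each other were counted as shared, 52.2% of the KLF H3K4me3 peaks had H3K27ac beside them. The share of the whole list under this wider rule was not computed, so that 52.2% cannot be set against 31.1%. The first base of the canonical transcript was under an H3K4me3 peak in 0 of the 10 genes and under an H3K27ac peak in 0 of 10. Among all genes with a mark within 1 kb, these shares were 7.14% and 4.33%, so that peaks beside the start rather than over it were the rule in both lists.

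**Figure D2:**
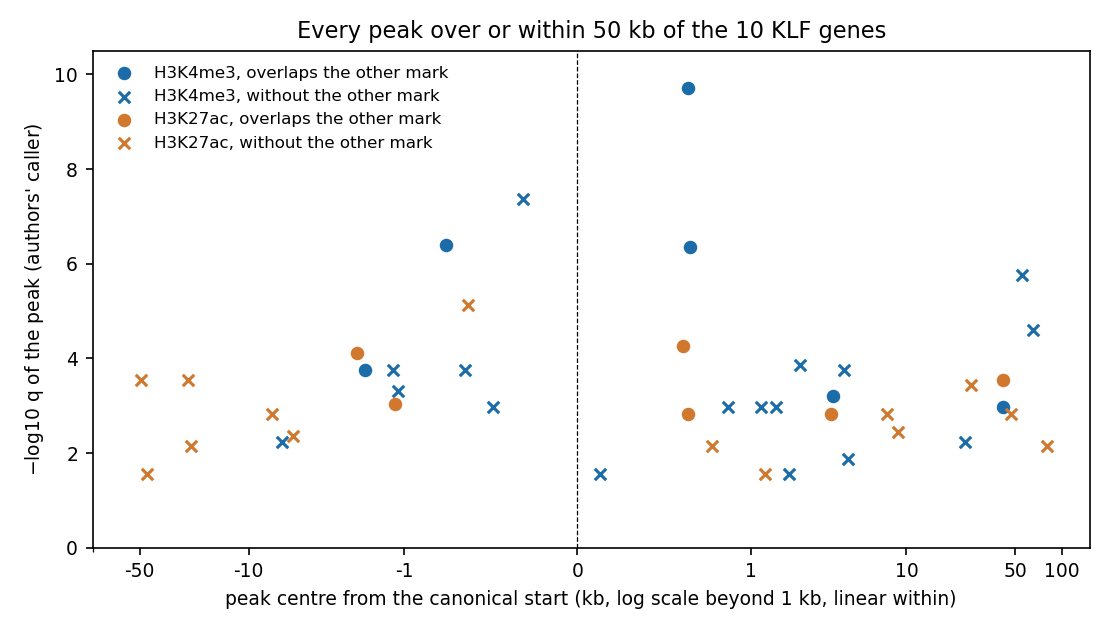
Every peak of the 10 KLF windows, with the distance of its centre from the canonical start on the x axis (kb, linear within 1 kb and logarithmic beyond) and its −log10 q on the y axis. Circles overlap a peak of the other mark and crosses do not. The highest value, 9.72, belongs to an H3K4me3 peak of *KLF10* just downstream of the start, and the H3K27ac peaks reach 5.12 at *KLF7*.

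*KLF2*, a factor best known in endothelium and lymphocytes, lies on the plus strand at chr19:16435637-16439496 (ENSG00000127528). Its window held a single peak, of H3K4me3, at chr19:16435160-16435490, 477 to 147 bp upstream of the start and in exon 1 of the divergent transcript KLF2-DT. The −log10 q of this peak was 7.36, above 95.3% of the list, although its width of 331 bp was unremarkable. No H3K27ac peak was found in the window, and the nearest lay 94.4 kb from the start. *KLF2* was thus a start with one of the stronger H3K4me3 peaks of the 10 genes and no listed acetylation. The 250 bases before the start are shown because 104 of them, at the 5′ end, lie under that peak. This promoter was picked after its values were seen. Capitals in this and the later sequences mark matches to CCNCNCCC or its reverse complement GGGNGNGG, a GC-box and GT-box pattern for KLF and SP factors, and all sequences are read 5′ to 3′ on the strand of the gene from the GRCh37 assembly. The *KLF2* promoter is chr19:16435387-16435636, with 5 overlapping matches that all fall in its first bases.
KLF2 promoter: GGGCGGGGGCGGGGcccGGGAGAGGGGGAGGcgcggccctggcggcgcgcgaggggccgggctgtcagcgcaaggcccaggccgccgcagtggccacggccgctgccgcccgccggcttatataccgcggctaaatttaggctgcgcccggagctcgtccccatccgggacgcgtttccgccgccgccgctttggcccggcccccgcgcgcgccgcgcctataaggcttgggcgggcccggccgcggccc

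*KLF4*, a reprogramming factor that also acts in epithelial differentiation, lies on the minus strand at chr9:110247133-110252763 (ENSG00000136826). An H3K4me3 peak of 468 bp at chr9:110252307-110252774 (−log10 q 2.97) covered the outer gene start and ended 257 bp upstream of the canonical one, in an exon of another transcript. A weaker one of 182 bp lay in exon 3 (1.55, above 6.37% of the list), and a peak of 363 bp lay beyond the gene, 24.1 kb downstream of the gene start in an intron of LINC01509. The 1 H3K27ac peak, 328 bp at chr9:110251111-110251438 (2.16), was over exon 2. It began 612 bp from the canonical start but 1325 bp from the outer start, which is why *KLF4* counted as marked by H3K27ac under one definition alone. This interval is also annotated as exon 1 of a non-coding gene (ENSG00000289987). Around *KLF4* the marks were adjacent and did not overlap.

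*KLF5*, a factor that promotes proliferation in many epithelia, lies on the plus strand at chr13:73629114-73651679 (ENSG00000102554). Its window held 1 peak, of H3K4me3, 258 bp at chr13:73634471-73634728 (−log10 q 2.97). The peak began 1328 bp downstream of the canonical start and 5357 bp downstream of the outer gene start. It covered the start of a shorter transcript at 73634717. The nearest H3K27ac peak was 80.7 kb from the canonical start. H3K27ac was sparse on chromosome 13 as a whole, where 11.2% of the 322 protein-coding starts had it within 1 kb, and within 5 Mb of *KLF5* it marked 2 of 21 other starts. H3K4me3 was not sparse there and marked 11 of these 21 starts (52.4%). The part of local coverage in the missing H3K27ac was not tested. The promoter of *KLF5*, chr13:73632893-73633142, is shown because *KLF5*, *KLF7* and *KLF11* had 0 bp of H3K4me3 within 5 kb of the outer start, and *KLF11* and *KLF5* had the least of these 3 from the canonical start (0 and 258 bp). None of its bases lay under a peak.
KLF5 promoter: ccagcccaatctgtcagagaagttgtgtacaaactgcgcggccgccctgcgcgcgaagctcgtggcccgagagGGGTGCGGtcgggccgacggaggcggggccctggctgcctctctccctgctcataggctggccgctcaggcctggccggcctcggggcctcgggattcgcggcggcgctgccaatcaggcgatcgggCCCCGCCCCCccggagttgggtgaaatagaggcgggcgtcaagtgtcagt

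*KLF6*, an early-response gene that is often described as a tumour suppressor, lies on the minus strand at chr10:3818188-3827473 (ENSG00000067082). Its 3 H3K4me3 peaks covered 1001 bp within 5 kb of the start, more than in 91.1% of all genes. A peak of 479 bp at chr10:3827809-3828287 (−log10 q 3.76) lay 814 to 336 bp upstream, in an intron of a non-coding gene. A peak of 202 bp lay in exon 1 (1.55), and another of 320 bp lay 3904 bp downstream (3.76). The 3 H3K27ac peaks were elsewhere. They lay in an intron 1194 bp downstream (1.55, above 8.32% of the list), 24.4 kb upstream in exon 1 of a non-coding gene (3.55) and 44.4 kb upstream outside any gene (1.55). None of the 6 peaks at *KLF6* overlapped the other mark. The 250 bases before the gene start, chr10:3827474-3827723, were not under a peak of either mark. They are shown because *KLF6* followed *KLF13* in H3K4me3 length among the promoters that could be printed.
KLF6 promoter: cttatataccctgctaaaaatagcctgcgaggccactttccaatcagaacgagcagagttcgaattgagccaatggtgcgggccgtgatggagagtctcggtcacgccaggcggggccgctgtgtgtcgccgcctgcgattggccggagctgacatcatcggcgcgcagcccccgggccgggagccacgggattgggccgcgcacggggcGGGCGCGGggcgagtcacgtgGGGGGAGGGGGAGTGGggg

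*KLF7*, known for roles in neurons, lies on the minus strand at chr2:207938861-208038580 (ENSG00000118263) and has 14 annotated transcript starts. No peak lay within 5 kb of its outer gene start, but both marks were found near the canonical start 7908 bp inside the gene, H3K4me3 on either side and H3K27ac upstream. H3K4me3 lay 965 to 1375 bp downstream of it (411 bp, −log10 q 2.97) and 1279 to 1081 bp upstream (199 bp, 3.76). Between the upstream H3K4me3 peak and the canonical start lay the H3K27ac peak of highest value in the windows of the 10 genes. It was 345 bp at chr2:208031134-208031478 (5.12, above 91.6% of the list), 806 to 462 bp upstream. It was in an intron of a longer *KLF7* transcript and did not overlap H3K4me3. The only overlapping peaks of the marks at *KLF7* lay at exon 2, about 42 kb into the canonical transcript. There H3K27ac covered 754 bp (3.55) and included a transcript start at 207989132. The central 300 bases of the intronic peak, chr2:208031157-208031456, are shown because no other H3K27ac peak of the 10 genes without H3K4me3 had a higher −log10 q.
KLF7 H3K27ac peak: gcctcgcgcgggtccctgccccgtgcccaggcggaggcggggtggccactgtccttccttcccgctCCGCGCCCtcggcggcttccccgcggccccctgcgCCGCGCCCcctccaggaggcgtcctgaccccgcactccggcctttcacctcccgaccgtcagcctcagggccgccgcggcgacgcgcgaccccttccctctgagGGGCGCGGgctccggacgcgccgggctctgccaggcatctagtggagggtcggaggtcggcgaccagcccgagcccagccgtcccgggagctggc

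As a group, the 5 activator genes had H3K4me3 within 1 kb of the outer start in 3 and H3K27ac in 0. The shares of all genes were 38.2% and 23.6%. From the canonical start the counts were 4 and 2, against 41.3% and 25.2%. Groups of this size were not compared further. Every one of the 5 had 258 to 1001 bp of H3K4me3 within 5 kb of the canonical start, while H3K27ac covered 0 to 345 bp. Of other starts within 5 Mb, H3K4me3 marked 39.2% for *KLF2*, 32.7% for *KLF4*, 38.5% for *KLF6* and 46.9% for *KLF7*. H3K27ac marked 22.3%, 6.12%, 20.5% and 28.6% of these starts, in the same order.

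*KLF3*, the repressor that binds CtBP, lies on the plus strand at chr4:38665818-38703138 (ENSG00000109787). It was one of the genes with both marks at the start under either definition. H3K4me3 (693 bp, chr4:38666126-38666818, −log10 q 6.35, above 92.0% of the list) and H3K27ac (665 bp, chr4:38666128-38666792, 2.82) had nearly the same borders, 308 and 310 bp downstream of the gene start, in an intron. An exon of the antisense gene KLF3-AS1 overlaps both. H3K27ac continued into the gene with 472 bp at 7.27 kb (2.82) and 214 bp at 8.76 kb (2.45), both intronic and without H3K4me3. The fourth H3K27ac peak, 48.7 kb upstream in an intron of KLF3-AS1, had the highest value of the 4 (3.54, above 72.3% of the list). H3K27ac covered 665 bp within 5 kb of the start, more than in 90.7% of all genes. This stood on a chromosome where 12.5% of starts had H3K27ac, and within 5 Mb 10 of 40 other starts (25.0%) had it.

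*KLF9*, a gene induced by thyroid and glucocorticoid hormones, lies on the minus strand at chr9:72999520-73029573 (ENSG00000119138). Its only peak near the start was H3K4me3 of 203 bp in exon 1, 767 to 969 bp downstream (−log10 q 2.97). A further H3K4me3 peak of 195 bp (2.23) lay 6.02 kb upstream in exon 1 of a non-coding gene, with H3K27ac of 342 bp (2.82) beside it at 6.87 kb. A last H3K27ac peak was 23.4 kb upstream (2.16). *KLF9* had the least H3K4me3 among the 7 genes marked at the outer start. Marks were also scarce nearby, where 26.8% of 41 other starts within 5 Mb had H3K4me3 and 4.88% had H3K27ac. The shares on all of chromosome 9 were 33.8% and 20.7%.

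*KLF11*, a gene close in sequence to *KLF10* and known from pancreatic beta cells, lies on the plus strand at chr2:10182976-10194963 (ENSG00000172059). It was the one KLF gene of the 10 without H3K4me3 in the window, and the nearest such peak was 79.0 kb from the start. Its single H3K27ac peak was 230 bp at chr2:10178373-10178602 (−log10 q 2.36), 4374 bp upstream and outside any gene. The surroundings were the most densely marked of the 10 genes. Of 32 other starts within 5 Mb, 22 (68.8%) had H3K4me3 and 15 (46.9%) had H3K27ac. The promoter, chr2:10183427-10183676, holds 8 matches to the pattern, more than any other sequence printed here. Its RefSeq promoter, set against those of other genes below, held 2.
KLF11 promoter: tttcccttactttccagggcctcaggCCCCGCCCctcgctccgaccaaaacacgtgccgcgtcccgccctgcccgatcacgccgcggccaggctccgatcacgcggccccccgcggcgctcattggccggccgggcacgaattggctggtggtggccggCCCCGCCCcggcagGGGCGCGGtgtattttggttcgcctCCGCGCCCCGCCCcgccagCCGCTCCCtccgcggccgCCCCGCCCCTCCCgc

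*KLF13*, first known for activating a chemokine gene in T cells, lies on the plus strand at chr15:31619038-31727868 (ENSG00000169926). It had 1913 bp of H3K4me3 within 5 kb of the start, more than in 98.8% of all genes, spread over 3 peaks. A peak of 844 bp lay 1524 to 681 bp upstream (−log10 q 3.32). In an intron, a peak of 729 bp began 1711 bp downstream (3.87) and one of 340 bp began 3196 bp downstream (3.21). H3K27ac overlapped the last of these (490 bp, 2.82), and H3K27ac was otherwise found deep in the gene at 26.0 kb (3.45), 46.7 kb (2.82) and 79.4 kb (2.16). An H3K4me3 peak of 317 bp at 65.2 kb had the highest value of the gene (4.60). In contrast to *KLF11*, *KLF13* stood in sparsely marked surroundings. Of 56 other starts within 5 Mb, 26.8% had H3K4me3 and 7.14% H3K27ac, against 46.0% and 27.3% of the starts on all of chromosome 15. Neighbours with H3K4me3 there had a median of 323 bp within 5 kb. The promoter, chr15:31618788-31619037, lies in the gap between the upstream peak and the intronic ones, and no base of it was under a peak.
KLF13 promoter: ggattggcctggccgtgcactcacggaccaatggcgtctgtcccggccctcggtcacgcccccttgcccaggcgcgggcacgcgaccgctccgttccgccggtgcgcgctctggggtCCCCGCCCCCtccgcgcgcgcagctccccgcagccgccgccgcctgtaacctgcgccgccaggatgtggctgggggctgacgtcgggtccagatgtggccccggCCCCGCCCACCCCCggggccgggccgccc

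*KLF10*, an early target of TGF-β, lies on the minus strand at chr8:103661012-103667953 (ENSG00000155090) and had the widest peaks of both marks. The H3K4me3 peak of 1012 bp at chr8:103666807-103667818 was over exon 1, 135 to 1146 bp downstream of the start, with 2 summits and a −log10 q of 9.72 (above 98.5% of the list). H3K27ac of 1031 bp (4.27) covered almost the same interval. Upstream of the start, H3K4me3 of 764 bp (6.39) began at 380 bp and overlapped H3K27ac of 542 bp (3.04), and a further pair lay beyond it, with 188 bp of H3K4me3 (3.76) and 632 bp of H3K27ac (4.11). All 3 H3K27ac peaks overlapped H3K4me3. Within 5 kb of the start, H3K4me3 covered 2342 bp and H3K27ac 2205 bp, more than in 99.5% and 99.4% of all genes. Like *KLF11*, *KLF10* lay among well marked neighbours. Of 44 other starts within 5 Mb, 63.6% had H3K4me3 and 36.4% H3K27ac, against 36.4% and 22.3% of the starts on all of chromosome 8. The neighbours with H3K4me3 had a median of 797 bp within 5 kb, below the 2342 bp of *KLF10*, and the spread of their values was not examined. Copy number was not measured, and its part in these values was not tested.

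The 4 genes whose proteins recruit SIN3A spanned the whole range of the 10 genes. H3K4me3 within 5 kb of the canonical start ran from 0 bp at *KLF11* to 2342 bp at *KLF10*, and H3K27ac from 0 to 2205 bp. Among them 3 had H3K4me3 and 1 had H3K27ac within 1 kb of the outer start, and the shares of all genes were 38.2% and 23.6%.

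**Figure D3:**
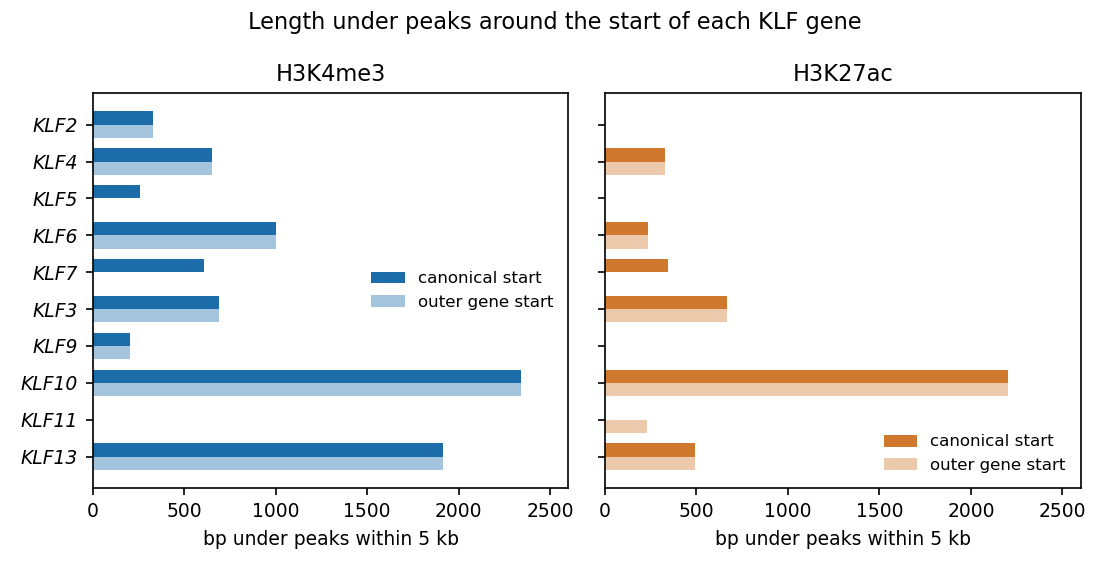
Length under H3K4me3 peaks (left) and H3K27ac peaks (right) within 5 kb of the start of each KLF gene, in bp, from the canonical start (dark bars) and the outer gene start (pale bars). *KLF10* is highest in both panels, *KLF13* is second for H3K4me3, and *KLF5*, *KLF7* and *KLF11* change with the start used.

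Over the 10 genes the length of H3K4me3 within 5 kb of the outer start had a median of 490 bp. Of these, 7 had any, with a median of 693 bp, and the 9067 protein-coding genes with any had a median of 552 bp. For H3K27ac the median was 232 bp, 6 genes had any, and their median of 409 bp was close to the 425 bp of the 6540 such genes. When H3K27ac peaks within 10 kb were joined, 4606 regions of at least 2 peaks resulted. *KLF3* held 2 of these regions and *KLF10* held 1, which ranked 1247, 4087 and 556 by length under peaks. None of the 10 genes had a region within the top 5%, the first 231, by this ranking.

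Most of the KLF starts lay in CpG-rich sequence. Within 500 bp of the canonical start, the median GC content was 71.0% against 61.2% over all genes, and the median ratio of observed to expected CpG was 0.935 against 0.723. With limits of 50% GC and a ratio of 0.6, 9 of the 10 starts were CpG-rich, against 64.3% of all. The exception was *KLF9*, with 41.3% GC and a ratio of 0.517. *KLF7* (ratio 0.628) and *KLF10* (0.71) passed the limits but were also below the median ratio of all genes. Among all CpG-rich genes, 58.4% had H3K4me3 and 34.3% had H3K27ac within 1 kb of the canonical start, and among the others 10.6% and 8.81%. The KLF counts of 8 and 4 of 10 are to be read against these shares too. *KLF9* had H3K4me3 within 1 kb of a CpG-poor start, but that peak lay 767 to 969 bp downstream, outside the 500 bp measured. *KLF11*, with 78.4% GC and a ratio of 0.982 around its start, had no H3K4me3 peak within 1 kb.

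The pattern CCNCNCCC was searched on both strands, with overlapping matches counted, in RefSeq promoters of GRCh38.p14 that run from 250 bases before to 50 bases after a start. Of the 10 genes, 8 were in this table (*KLF3* and *KLF10* were not). It was present in 6 of the 8, against 66.8% of 15842 promoters, with a median of 5 matches against 1. *KLF4* held 10, *KLF2* 7, *KLF6* and *KLF7* 6 each, *KLF13* 4 and *KLF11* 2, and *KLF5* and *KLF9* held none. The table uses other starts than GENCODE, and the promoters printed above hold 3 at *KLF5* and 8 at *KLF11*. CACCC, searched the same way, was found in 3 of the 8, against 62.9%, and GGGCGG in 5, against 58.5%. Some matches of GGGCGG and CCNCNCCC overlap. In the H3K4me3 peaks within 1 kb of the outer starts, CCNCNCCC occurred at all 7 marked genes, from 1 match at *KLF6* and at *KLF9* to 15 at *KLF3* and at *KLF10*. The same held for 79.1% of the 7705 protein-coding genes with such peaks, whose median was 2 matches. A match describes the letters in the window and is no evidence of binding.

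Related genes give the setting. At the outer start, the shares of all genes were 38.2% for H3K4me3, 23.6% for H3K27ac and 18.6% for both. Of 8 other KLF genes, H3K4me3 lay within 1 kb of that start in 2 (*KLF1*, −log10 q 2.54, and *KLF16*, 2.49) and H3K27ac in 0. *KLF8*, *KLF14*, *KLF17* and *KLF18* had no peak of either mark in the window. Of 9 SP genes, whose proteins bind the same boxes, 5 had H3K4me3 (*SP3*, *SP4*, *SP5*, *SP7* and *SP8*) and 3 had H3K27ac (*SP1*, *SP3* and *SP5*). Of 16 genes of co-factors and regulators of KLF proteins, 11 had H3K4me3 and 11 had H3K27ac within 1 kb, 10 of them both. No difference from the KLF genes is read in lists this small. From the canonical start, where 25.2% of all genes had H3K27ac and 41.3% had H3K4me3, 9 and 12 of these 16 genes had them. Among these were *CTBP1* (3.76 for H3K4me3 and 3.55 for H3K27ac) and *CTBP2* (6.18 and 3.2, at the outer start alone), which encode the partners of KLF3, and *MAPK7* (5.41 and 5.03) and *MEF2D* (5.1 and 6.79) of the pathway that induces *KLF2*. *MEF2C* of that pathway had neither mark at its outer start, and H3K4me3 alone at its canonical start. The co-factors and regulators named before it are all among the 10 with both marks. These lists were drawn up with earlier results in view and received no test.

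**Figure D4:**
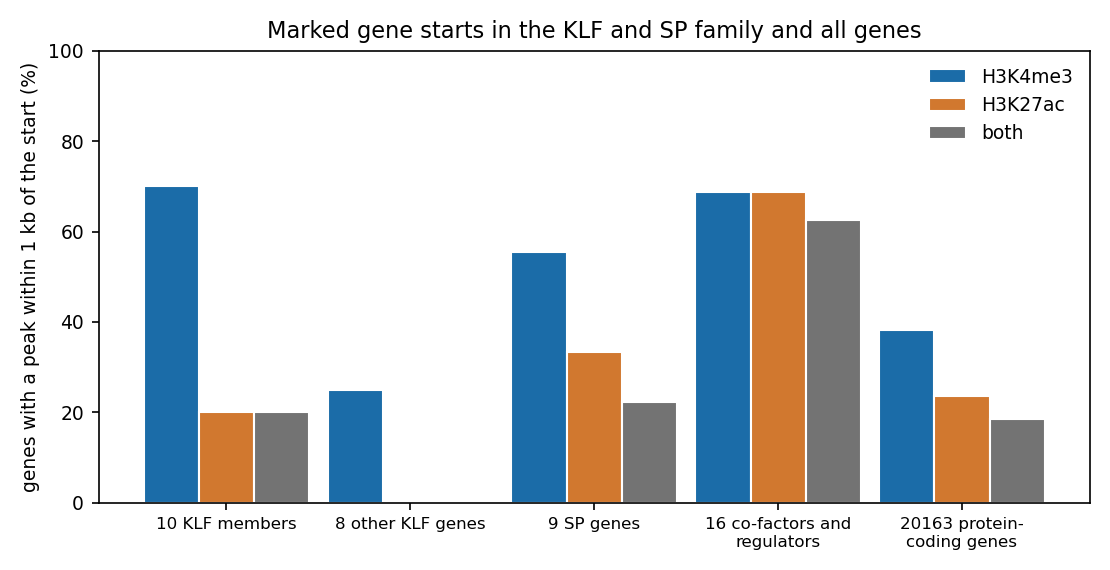
Percent of genes with H3K4me3 (blue), H3K27ac (orange) or both (grey) within 1 kb of the outer gene start, for the KLF genes, 3 related lists and all protein-coding genes. For the KLF genes the bars correspond to 7, 2 and 2 of 10, and for the co-factor and regulator genes to 11, 11 and 10 of 16.

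The identity of the cells was checked by marker genes. H3K4me3 lay within 1 kb of the start in 6 of 6 epithelial markers and H3K27ac in 5 of 6. The shares of all genes were 38.2% and 23.6%. Of 7 lung lineage markers, 2 had H3K4me3 and 3 had H3K27ac (*NKX2-1* and *FOXA1* with both, *FOXA2* with H3K27ac). The surfactant genes *SFTPA1*, *SFTPB* and *SFTPC* had neither, and nor did *NAPSA*. None of 4 haematopoietic, 2 endothelial and 4 fibroblast markers had either mark there, although *CD14*, a haematopoietic marker, had H3K4me3 within 1 kb of its canonical start.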

How the data were processed

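ChIP-seq of H2087 cells gave 1 peak list for each of H3K27ac and H3K4me3, and the input sample was not analysed here. Per the submitters' processing notes and the published methods, the authors mapped reads to hg19 with Bowtie 1.1.1, and peaks were called with MACS2 2.1.0 and annotated with ChIPseeker 1.6.6. The threshold, the treatment of duplicates, the calling mode and the use of input in calling are not given in the sources used here. The deposited lists hold positions, names and a column without header, read from its values as the −log10 q of the authors' caller (smallest values 1.3 and 1.31, against 1.301 for q = 0.05).

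Entries with the same position were joined and the highest value was kept, which left 24096 of 25275 H3K27ac and 18585 of 20282 H3K4me3 intervals. Gene starts came from GENCODE 44 mapped to GRCh37. A start was called marked when a peak lay within 1 kb. Counts and medians are given beside those of all protein-coding genes, since groups of 1 library allow no test. CpG content, motifs and sequences were read from the GRCh37 assembly and RefSeq promoter tables with Python 3.11.15, pysam 0.24.0, pandas 2.3.3 and SciPy 1.17.1, and intervals were tested on simulated data. The genes and lists were chosen with earlier results of these data known, and the shares of marked starts within 5 Mb were added after the values had been seen. Of other genes, the rule named KLF, SP and marker genes with a mark within 1 kb of the start, up to 4 co-factors, and neighbours. *KLF8*, *KLF14*, *KLF17*, *KLF18*, *MEF2C*, *SFTPA1*, *SFTPB*, *SFTPC*, *NAPSA* and *CD14* were named after their values were seen. *PECAM1* was not found in the annotation. Alternatives were another start, distance, window, overlap, stitching distance, subset of peaks or motif.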

Additional observations from a re-analysis of the deposited data

How the results depend on the processing

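Of the 64 alternatives to values that answer a comparison, 45 left the value within its tolerance (a factor of 1.5 for counts) and 19 moved it. Genes with H3K27ac within 1 kb of the start numbered 4 instead of 2 from the canonical start, from any transcript start and within 3 kb, and 0 with peaks of −log10 q of at least 5. Genes with both marks went the same way, to 4, 4, 4 and 0. At that limit H3K4me3 marked 3 of the 10 starts, against 10.7% of all genes, and the windows held 5 H3K4me3 and 1 H3K27ac peaks. H3K27ac peaks numbered 40 within 100 kb and 13 in the upper part of the list. With peaks within 1 kb counted as shared, 52.2% of H3K4me3 peaks had H3K27ac, a share not computed for the whole list. The median H3K27ac length was 0 bp within 2 kb and in the upper part of the list. The KLF start was nearest to 20% of the H3K27ac peaks when starts of all genes were counted and to 72.5% within 100 kb. The motif CACCC was in 3 promoters. Set against all genes, the H3K27ac count was lower as reported (2 of 10 against 23.6%) and at a −log10 q of at least 5 (0 against 3.53%). It was higher from the canonical start (4 against 25.2%), from any transcript start (4 against 30.7%), within 3 kb (4 against 29.9%), within 500 bp (2 against 17.8%) and in the upper part of the list (2 against 14.9%). The motif turned from higher (6 of 8 against 66.8%) to lower for CACCC (3 of 8 against 62.9%). With only 10 genes or 8 promoters, no direction is read from any of these differences. No paired analysis was possible because replicates were lacking, which also left none to omit. Depth and read background are unknown here, so absent peaks set no upper limit on the marks.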

Other observations

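The stretches around several of the KLF genes held H3K27ac beyond 50 kb. Each stretch includes the KLF gene and any non-coding genes up to its protein-coding neighbours. Between the neighbouring protein-coding genes on either side, the *KLF10* interval of 265 kb held 17 H3K27ac peaks, 14 of them outside the 50-kb window, or 6.41 per 100 kb. Its peak of highest −log10 q (5.31) was at chr8:103800901-103801802, 133 kb from the start. The *KLF6* interval of 1614 kb held 10 H3K27ac peaks (0.62 per 100 kb) and 3 H3K4me3 peaks. Of its H3K27ac peaks, 7 were outside the window, and the highest value (4.32) was at chr10:4105065-4105258, 278 kb from the start. The *KLF7* interval of 560 kb held 7 H3K27ac peaks (1.25 per 100 kb), 5 of them outside the window. In the 670 kb around *KLF5*, between *PIBF1* and *KLF12*, there was 1 H3K27ac peak (1.55), at chr13:73713848-73714080. The 109 kb around *KLF2* held none. After *KLF10*, the highest density was at *KLF11*, with 1.85 per 100 kb from 1 peak in 54.2 kb. No such density was computed for other genes or the whole genome, so these values have no reference. Which gene any of these peaks acts on was not tested.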
